A study of Mus musculus with 6 samples.

Results

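Iron uptake, storage and export were described through 10 genes, taken by symbol from the deposited count table of 52636 genes: Tfrc, Steap3, Slc11a2 and Slc39a14 for uptake, Fth1, Ftl1 and Ncoa4 for storage, Slc40a1 for export, and Ireb2 and Aco1 for regulation. All 10 were found and all 10 passed the filter on low counts. The samples were 3 libraries labelled J110 and 3 labelled SSM3, both mouse mammary tumour cell lines grown in culture, sequenced from the 3′ ends of their transcripts. J110 cells came from transgenic mice that expressed AIB1 cDNA from the MMTV LTR, a promoter active in mammary epithelium. SSM3 cells came from mammary tumours of 129SvEv mice. Each line stands for its own genotype, and no untreated control line or normal mammary tissue was analysed here. Both media were DMEM/F12 with insulin and hydrocortisone. Only the SSM3 medium was given holo-transferrin, the iron-loaded form of transferrin, and SSM3 cells also had more serum, glutamine, β-mercaptoethanol and a higher CO2. Medium, genotype and cell line therefore cannot be told apart in any value below.

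Most cells take up iron bound to transferrin through the transferrin receptor, reduce it in the endosome and pass it to the cytosol. Iron that is not used is stored in ferritin, a shell of heavy and light chains, and leaves the cell through ferroportin, the only known iron exporter. The iron regulatory proteins IRP1 and IRP2 adjust these steps by binding stem-loops called iron responsive elements (IREs) when cells are short of iron. Binding near the start of a transcript blocks its translation, as for ferritin, and binding in the 3′ untranslated region (UTR) protects the transcript from decay, as for the transferrin receptor. Read counts measure transcripts, so control of translation through a 5′ element is not visible in them.

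The elements of the members are shown because they separate transcripts whose stability is under IRP control from those whose translation is. GENCODE M21 transcripts (GRCm38, the assembly named mm10) were searched on the transcript strand for an unpaired C, a stem of 5 base pairs with G-T pairs allowed, and the loop CAGTGN. In the 30-base windows below, written 5′ to 3′, capitals mark the loop. The Fth1 element lay at chr19:9982731-9982760 on the forward strand, that of Ftl1 at chr7:45459779-45459808 on the reverse strand, and that of Slc40a1 at chr1:45925465-45925494 on the reverse strand. The elements found in Tfrc lay on the forward strand at chr16:32631218-32631247, chr16:32631597-32631626, chr16:32631662-32631691 and chr16:32631709-32631738, in that order.
Fth1, 5′ UTR: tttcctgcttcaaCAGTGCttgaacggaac
Ftl1, 5′ UTR: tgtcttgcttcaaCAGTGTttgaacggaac
Slc40a1, 5′ UTR: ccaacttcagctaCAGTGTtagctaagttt
Tfrc, 3′ UTR, at 32631218: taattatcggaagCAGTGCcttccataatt
Tfrc, 3′ UTR, at 32631597: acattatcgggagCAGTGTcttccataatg
Tfrc, 3′ UTR, at 32631662: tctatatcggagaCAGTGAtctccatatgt
Tfrc, 3′ UTR, at 32631709: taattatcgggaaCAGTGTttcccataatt

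The windows of the ferritin chains Fth1 and Ftl1 were identical at 27 of 30 bases. The Slc40a1 window matched each of them at 13 of 30 bases, and the 4 Tfrc windows matched one another at 18 to 25 of 30. The pattern was found in the 5′ UTR of 31 of 20916 genes (0.148%) and in the 3′ UTR of 129 of 21039 (0.613%). It was annotated in 4 of 5 coding transcripts of Fth1, 1 of 2 of Ftl1, 1 of 4 of Slc40a1 and 1 of 3 of Tfrc. The search found no match in the other 6 members. It allowed no other bulge in the stem, so in any member it would miss elements of another shape, such as the one known in the 3′ UTR of Slc11a2.

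Library totals ranged from 5209740 to 5416305 counts in J110 and from 4200785 to 4792941 in SSM3. A count of 3, the level below which a gene was treated as not detectable, corresponded to 0.578 to 0.668 CPM (counts per 1000000 counts of the library, scaled by TMM). The ribosomal RNA locus on chromosome 17 took 15.1% to 17.2% of the counts in J110 and 0.779% to 1.27% in SSM3. The gene behind the transgene was not higher in J110. Ncoa3, which encodes AIB1, had 110, 106 and 102 counts in J110 and 181, 199 and 186 in SSM3. Which part of the transcript the transgene covers is not given in the sources used here, so these 3′ counts on Ncoa3 do not check the label. Over 12 epithelial markers the level summed to 3070 to 3205 CPM in J110 and 15100 to 16290 CPM in SSM3. They did not all differ in 1 direction, since the keratin gene Krt18 had 7401, 7330 and 6777 counts in J110 and 4223, 4510 and 5085 in SSM3. The epithelial adhesion gene Epcam had 2, 1 and 7 counts in J110 against 2376, 2404 and 2412 in SSM3. The E-cadherin gene Cdh1 had 21, 11 and 28 counts in J110 and 6019, 6369 and 7179 in SSM3, and the progesterone receptor gene Pgr 0, 0 and 2 against 1638, 1859 and 1719. Of the markers of iron-recycling macrophages, Adgre1, Itgam, Cd163 and the C1q genes were at 0 in every library, as were the erythroid genes Gata1, Slc4a1, Hbb-bs and Hbb-bt. Summed over the 10 macrophage markers the level was 29.0 to 37.0 CPM in J110 and 14.7 to 16.99 CPM in SSM3. Most of it was Csf1r, with 64, 82 and 69 counts in J110 and 61, 73 and 68 in SSM3, and Cd68, with 115, 95 and 70 against 9, 5 and 6. Over the 10 erythroid markers the sum was 0.626 to 1.58 and 1.99 to 2.97 CPM. Hba-a1 had 0, 0 and 1 counts in J110 and 6, 4 and 5 in SSM3, and Hba-a2 0, 0 and 0 against 3, 5 and 2. Klf1 had 2, 3 and 0 against 0, 1 and 0, and Epor 2, 4 and 2 against 1, 4 and 1. The 6 endothelial markers summed to 158 to 181 CPM in J110, nearly all of it Cdh5, and to at most 0.425 CPM in SSM3, with Tie1 and Emcn at 0 throughout. The 7 fibroblast markers summed to 1.54 to 4.38 CPM in J110 and, nearly all of it Dcn, to 1336 to 1480 CPM in SSM3, with Col1a2, Lum and Pdgfrb at 0 throughout. Col1a1 went the other way, with 5, 6 and 5 counts in J110 and 0 in each SSM3 library, and Col3a1 had 0, 3 and 0 counts in J110 and 0 in SSM3. The part of these marker levels in the results was not tested.

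The lines differed at all 10 genes at an adjusted p of 0.05 in edgeR. For Aco1 the difference was narrow, and its call was lost in 10 of 16 alternatives, as given below. Tfrc and Slc40a1 were higher in SSM3 and the other 8 were lower, and in none did the libraries of the lines overlap. These counts are read against a wide background. Of 12284 genes tested, 9566 (77.9%) passed an adjusted p of 0.05 in edgeR's quasi-likelihood test, 38.6% higher and 39.2% lower in SSM3, and the libraries of the lines did not overlap for 79.6%. The quartiles of the log2 fold change, SSM3 against J110, over all genes tested were -0.87 and 0.81. Of the members, 6 passed the filter on low counts in both lines, Ncoa4, Steap3 and Slc39a14 passed only through J110, and Slc40a1 only through SSM3, so those 4 could enter the test only because 1 line was high. In bulk libraries, fewer cells that express a gene and less RNA per cell cannot be told apart.

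**Figure D1:**
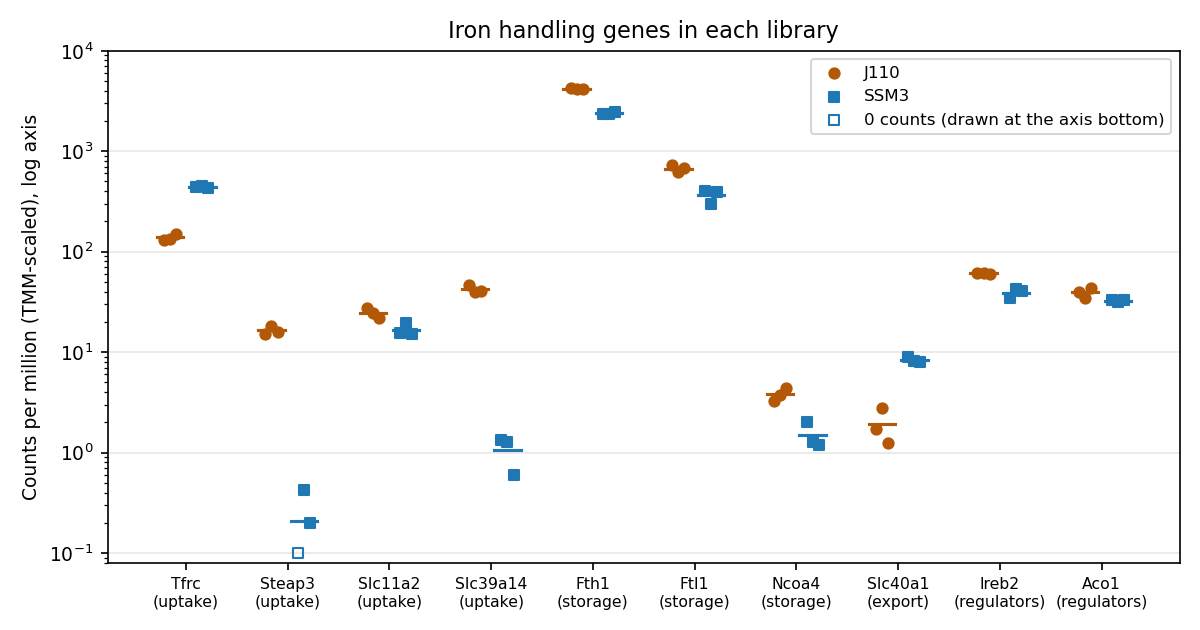
CPM (TMM-scaled, log axis) of the 10 genes in each library, with J110 as circles, SSM3 as squares and the mean of each line as a bar; the open square is a library with 0 counts, drawn near the bottom of the axis. Tfrc and Slc40a1 sit higher in SSM3 and the other genes lower, with the widest gaps at Steap3 and Slc39a14.

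The receptor and the other uptake genes moved in opposite directions. Tfrc was 3.19-fold higher in SSM3, while Slc39a14, Steap3 and Slc11a2 were lower. Tfrc (ENSMUSG00000022797, chr16:32608920-32632794, forward strand) encodes transferrin receptor 1, which brings transferrin-bound iron into the cell. It had 683, 683 and 718 counts in J110 and 1996, 2145 and 2155 in SSM3. Every SSM3 library thus lay far above every J110 library, and the libraries of each line lay close together. Scaled to library size, Tfrc averaged 138.9 ± 9.65 CPM in the J110 libraries and 442.9 ± 13.4 CPM in those of SSM3 (SD, n = 3), a log2 fold change of 1.67 ± 0.075 (SE; edgeR, adjusted p = 3.90e-12). Of all genes tested, 26.1% differed between the lines by more than Tfrc.

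Steap3 (ENSMUSG00000026389, chr1:120190757-120272705, reverse strand) encodes a ferrireductase of the endosome, which reduces iron released from transferrin so that it can be transported. It had 79, 93 and 76 counts in J110 and 0, 2 and 1 in SSM3, at or below the limit of detection in each SSM3 library. The sum of 248 counts against 3 gave a ratio, scaled for library size, of 78.2 (95% interval 26.4 to 382, counting error only), with a log2 fold change of -6.13 ± 0.40 (edgeR, adjusted p = 6.28e-10). The fitted log2 fold change was -6.98 without SSM3 replicate 2, which held 2 of the 3 counts.

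Slc39a14 (ENSMUSG00000022094, chr14:70303469-70351425, reverse strand) encodes ZIP14, a transporter that takes up iron not bound to transferrin, and also zinc and manganese. It had 240, 201 and 193 counts in J110 and 6, 6 and 3 in SSM3. The gene was present in all J110 libraries and close to the limit of detection in SSM3. The levels were 42.1 ± 3.62 CPM in J110 against 1.07 ± 0.41 CPM for SSM3 (SD, n = 3), a log2 fold change of -5.29 ± 0.23 (edgeR, adjusted p = 2.78e-12). The largest changes among the members were those of Steap3 and Slc39a14, with 7.33% and 8.85% of all genes tested changing by more. Other genes that were abundant in J110 also left a few counts in SSM3 libraries. For this, 26 genes were taken that had at least 200 CPM in J110 and at most 1% of that in SSM3. For these 26 genes the SSM3 libraries held 0.243%, 0.430% and 0.160% of the J110 level. The limit of 1% fixed these shares below 1% in advance, so they are no yardstick for the members. The shares were 3.17%, 3.03% and 1.42% for Slc39a14 and 0%, 2.58% and 1.21% for Steap3. Whether the few counts of these genes came from SSM3 cells was not tested.

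Slc11a2 (ENSMUSG00000023030, chr15:100387898-100425072, reverse strand) encodes DMT1, which moves ferrous iron across the endosomal or the apical membrane. It had 143, 123 and 104 counts in J110 and 69, 91 and 76 in SSM3. The difference was modest, and the highest SSM3 library approached the lowest of J110. The levels were 24.5 ± 2.94 and 16.6 ± 2.36 CPM (SD, n = 3), a log2 fold change of -0.57 ± 0.15 (edgeR, adjusted p = 0.00318), and 64.4% of all genes tested changed by more.

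The gene totals of both ferritin chains were lower in SSM3, though the parts of Ftl1 may have differed in opposite directions, as given below. Fth1 (ENSMUSG00000024661, chr19:9980598-9985098, forward strand) encodes the heavy chain, which oxidises iron as it enters the shell. It had 21889, 20859 and 19836 counts in J110 and 10466, 11033 and 12486 in SSM3. The lines did not come near each other, with 4162 ± 50.9 CPM in J110 against 2386 ± 85.5 CPM for SSM3 (SD, n = 3). The log2 fold change was -0.80 ± 0.067 (edgeR, adjusted p = 1.27e-08), or 1.74-fold lower, and 51.7% of all genes tested changed by more.

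Ftl1 (ENSMUSG00000050708, chr7:45457944-45459884, reverse strand) encodes the light chain, which helps form the mineral core. It had 3754, 3120 and 3240 counts in J110 and 1809, 1393 and 1956 in SSM3. The libraries spread more than those of Fth1, with 672.3 ± 53.4 CPM in J110 against 362.6 ± 58.3 CPM for SSM3 (SD, n = 3), still without overlap. The log2 fold change was -0.89 ± 0.10 (edgeR, adjusted p = 4.55e-07), or 1.85-fold lower. Fth1 made up 85.4%, 87.0% and 86.0% of the counts of both chains in J110 and 85.3%, 88.8% and 86.5% in SSM3. The ranges of this share overlapped. Counts from 3′ ends do not scale with transcript length, but capture differs between genes, so the share describes counts and not subunits.

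The counts of Ftl1 did not fall on the same part of the gene in both lines. A predicted microRNA gene, Gm22133 (chr7:45458089-45458197, reverse strand, 109 bases), lies within the last exon of Ftl1 on the same strand, across its stop codon, and ends 145 bases before the 3′ end of Ftl1. It was named after its values were seen. Its counts were 3662, 3015 and 3141 in J110 and 1078, 757 and 898 in SSM3. If each read that touched this interval was counted for both genes, the interval held 97.0% ± 0.47 of the Ftl1 counts in J110 and 53.3% ± 6.90 in SSM3 (SD, n = 3). The counting options are not given in the sources used here. Counts touching the interval were 3.38-fold lower in SSM3 (log2 fold change -1.76 ± 0.12; edgeR, adjusted p = 5.69e-10). Counts on the rest of Ftl1 were 92, 105 and 99 in J110 and 731, 636 and 1058 in SSM3. These were 8.60-fold higher in SSM3 (log2 fold change 3.10 ± 0.15; edgeR, adjusted p = 1.09e-11). Under that reading, the lower level of Ftl1 as a whole in SSM3 sums opposite differences within the gene, and no such split could be made for Fth1.

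Reads of Ftl1 could also be shared with a near-identical copy. Ftl1-ps1 (chr13:74399694-74407346) was 97.3% identical to Ftl1 over 930 bases and had 184, 305 and 230 counts in J110 and 32, 26 and 39 in SSM3. It differed in the same direction as Ftl1, and with the counts of annotated pseudogenes added the log2 fold change of Ftl1 was -0.96 ± 0.097 (edgeR, adjusted p = 1.20e-07). The only copy of Fth1 found at 95% identity or more, Gm6977, had at most 2 counts in any library.

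**Figure D2:**
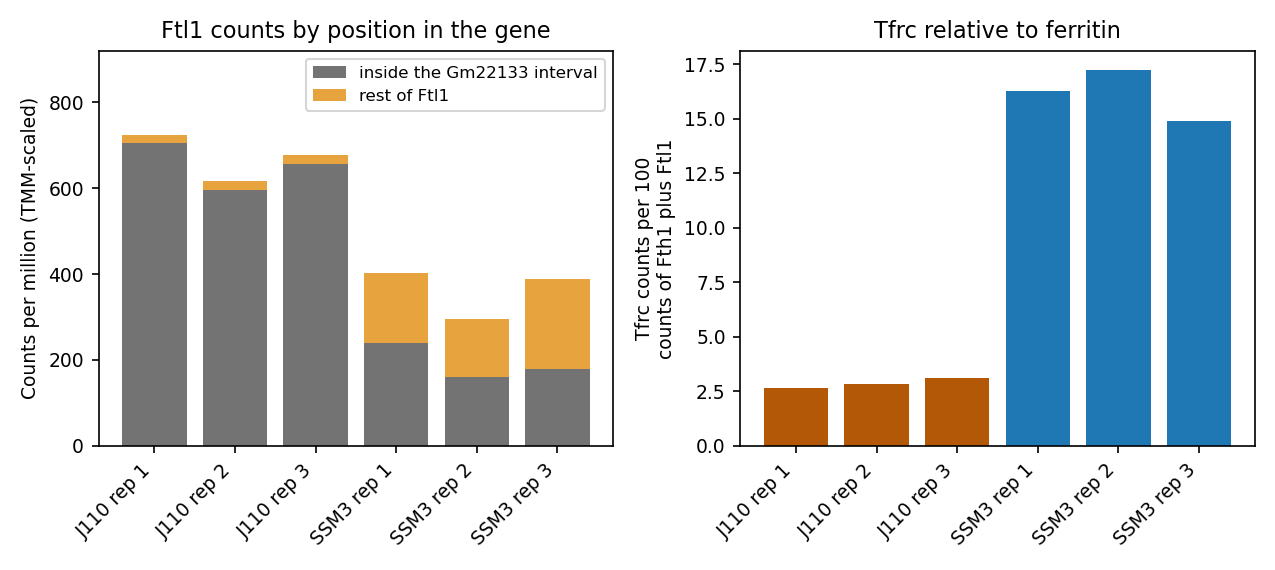
Left, Ftl1 CPM in each library, stacked as reads touching the Gm22133 interval (grey) and reads on the rest of the gene (yellow); right, Tfrc counts per 100 counts of Fth1 plus Ftl1 in each library. The grey part makes up nearly all of Ftl1 in J110 and 45.9% to 59.6% in SSM3, and the Tfrc bars lie between 2.66 and 3.11 in J110 and between 14.9 and 17.3 in SSM3.

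Ncoa4 (ENSMUSG00000056234, chr14:32159865-32179855, forward strand) encodes the receptor that delivers ferritin to lysosomes, where its iron is released. It had 17, 19 and 21 counts in J110 and 9, 6 and 6 in SSM3. All values were low, and the lines did not overlap. The levels were 3.81 ± 0.55 and 1.49 ± 0.45 CPM (SD, n = 3), a log2 fold change of -1.34 ± 0.34 (edgeR, adjusted p = 0.00196).

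The single exporter was higher in SSM3. Slc40a1 (ENSMUSG00000025993, chr1:45908068-45926523, reverse strand) encodes ferroportin. It had 9, 14 and 6 counts in J110 and 40, 38 and 40 in SSM3. Counts were few in both lines, and the SSM3 libraries agreed closely. The levels were 1.92 ± 0.78 and 8.31 ± 0.52 CPM (SD, n = 3), a log2 fold change of 2.09 ± 0.29 (edgeR, adjusted p = 6.38e-06), or 4.26-fold higher in SSM3. Of all genes tested, 20.6% changed by more.

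The genes of both iron regulatory proteins were lower in SSM3, that of IRP1 only narrowly. Ireb2 (ENSMUSG00000032293, chr9:54863789-54912530, forward strand) encodes IRP2, which is degraded when iron is plentiful. It had 320, 312 and 289 counts in J110 and 155, 198 and 204 in SSM3, with a clear gap between the lines. The levels were 61.2 ± 0.80 and 39.1 ± 4.0 CPM (SD, n = 3), a log2 fold change of -0.65 ± 0.10 (edgeR, adjusted p = 1.81e-05). Aco1 (ENSMUSG00000028405, chr4:40143081-40198338, forward strand) encodes IRP1, which works as a cytosolic aconitase when it holds an iron-sulphur cluster. It had 207, 176 and 209 counts in J110 and 148, 149 and 165 in SSM3. The levels were 39.4 ± 4.42 and 32.5 ± 0.73 CPM (SD, n = 3), a log2 fold change of -0.28 ± 0.12 (edgeR, adjusted p = 0.0378), and 81.6% of all genes tested changed by more. The Aco1 call was lost in 10 of 16 alternatives. In edgeR the adjusted p rose to 0.0769 with J110 replicate 1 left out, to 0.136 with J110 replicate 3 left out, and to 0.0610, 0.103 and 0.0524 with SSM3 replicate 1, 2 or 3 left out. With library size only as the scaling, which moved the median of all genes from -0.014 to 0.16, Aco1 had a log2 fold change of -0.10 (adjusted p = 0.423).

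**Figure D3:**
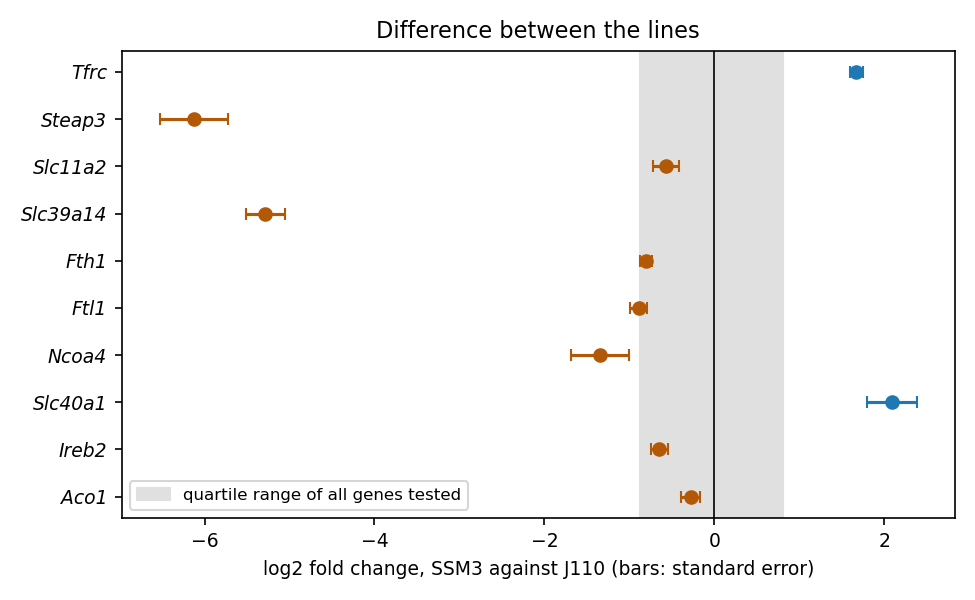
Log2 fold change, SSM3 against J110, of each gene, with its standard error as a bar; blue marks genes higher in SSM3, brown genes lower, and the grey band the range between the quartiles of all genes tested. Tfrc at 1.67 and Slc40a1 at 2.09 lie above the band, Fth1, Slc11a2, Ireb2 and Aco1 lie within it, Ftl1 at -0.89 is at its lower edge, and Ncoa4, Slc39a14 and Steap3 lie below it.

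Receptor and ferritin transcripts were also set against each other within a library, which does not depend on the scaling. There were 2.66, 2.85 and 3.11 Tfrc counts per 100 counts of Fth1 plus Ftl1 in J110, and 16.3, 17.3 and 14.9 in SSM3. The ratio was 2.87 ± 0.23 in J110 and 16.2 ± 1.17 in SSM3 (SD, n = 3), 5.62-fold higher in SSM3, and the lines did not overlap. Both ferritin chains together took 0.443% to 0.473% of all counts in J110 and 0.283% to 0.301% in SSM3.

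The other genes of iron handling were gathered in 6 lists of 83 genes in all, 67 of them tested. Of these 29 were higher and 24 lower in SSM3, and 14 did not pass. That is 79.1% called against 77.9% of all genes, with a median log2 fold change of 0.069 against -0.014 for all genes, so the lists as a whole stood close to the background. Of the genes named below, Slc22a17 and Tmprss6 lay below the filter on low counts in J110, and Slc39a8 and Hebp1 in SSM3. They could enter the test only through the line where they were high, and they are part of their lists' counts and medians. The lists are given by role.

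Among 12 other uptake genes, 7 were tested, of which 1 was higher and 5 were lower, with a median log2 fold change of -1.35. The metalloreductases related to Steap3 were low in SSM3. Steap2 had 442, 411 and 409 counts in J110 and 13, 11 and 10 in SSM3, a log2 fold change of -5.12 ± 0.15 (edgeR, adjusted p = 2.06e-14). Steap1, of the same family, had 266, 260 and 259 counts in J110 and 21, 12 and 14 in SSM3, a log2 fold change of -3.97 ± 0.18 (edgeR, adjusted p = 5.04e-12). Steap4 went the other way, with 0 counts in each J110 library and 7, 14 and 5 in SSM3, too few to be tested and at least 2.94-fold higher against a floor of 3 counts per library. Slc39a8, which encodes ZIP8, the transporter most like ZIP14, had 30, 18 and 22 counts in J110 and 0, 0 and 1 in SSM3, a ratio of 66.2 (95% interval 11.5 to 2653, counting error only). The ZIP14 and ZIP8 genes and the genes of the STEAP family apart from Steap4 were thus all lower in SSM3. Slc22a17, a receptor for lipocalin, was the uptake gene higher in SSM3, with 4, 1 and 1 counts against 20, 39 and 33 and a log2 fold change of 3.93 ± 0.47 (edgeR, adjusted p = 9.80e-07). Without J110 replicate 1 its log2 fold change was 4.81. Trf, which encodes transferrin, was not tested and had 2, 2 and 5 counts in J110 and 7, 20 and 26 in SSM3. Its counts are uncertain, because Gm20425 shares exons with it on the same strand at similar counts. Lcn2, which encodes lipocalin 2, was not tested either and had 2, 1 and 2 counts against 14, 7 and 12. The second transferrin receptor, Tfr2, had at most 2 counts in any library, and the reductase gene Cybrd1 had none.

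In the storage list, 4 of 6 genes were tested, 2 were higher and 1 lower, with a median log2 fold change of 0.31. These were the poly(C)-binding proteins, of which PCBP1 and PCBP2 are known to carry iron to ferritin. Pcbp1 was at 279.0 ± 3.49 CPM in J110 against 448.6 ± 19.0 CPM for SSM3 (SD, n = 3), a log2 fold change of 0.69 (edgeR, adjusted p = 8.74e-08). Pcbp2 had a log2 fold change of -0.60 and Pcbp4 one of 0.90. Both are uncertain, because Map3k12 shares exons with Pcbp2 and Gpr62 with Pcbp4 on the opposite strand at similar counts. Mitochondrial ferritin, Ftmt, had no count.

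The export list holds the ferroxidases that work with ferroportin and the genes of the hepcidin pathway, which controls ferroportin in the body. Of 10 genes 4 were tested, 1 higher and 3 lower, with a median log2 fold change of -1.34. Tmprss6, a protease that restrains hepcidin in liver, had 0, 0 and 1 counts in J110 and 79, 91 and 87 in SSM3, a ratio of 272 (95% interval 48.3 to 10770, counting error only). Neo1, which encodes the hemojuvelin receptor neogenin, had a log2 fold change of -1.61, the ferroxidase gene Cp one of -1.60 and Bmp6, a signal for hepcidin, one of -1.09. Bmp6 shares exons with Txndc5, which had more counts than Bmp6, and Cp with Hps3, so both are uncertain. Hepcidin itself was close to absent, with 1 count of Hamp in 1 library and none of Hamp2. Heph, a ferroxidase, had no count in J110 and 4, 8 and 11 counts in SSM3.

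All 5 other regulators were tested, 3 higher and 1 lower, with a median log2 fold change of 0.20. Fbxl5, the iron-sensing subunit of the ligase that degrades IRP2, was at 58.9 ± 3.14 CPM in J110 against 42.6 ± 1.10 CPM for SSM3 (SD, n = 3), a log2 fold change of -0.47 (edgeR, adjusted p = 0.000258). Its partner Skp1a had a log2 fold change of 0.66. Epas1, which encodes the hypoxia factor HIF-2α, had 48, 26 and 28 counts in J110 and 130, 119 and 132 in SSM3, a log2 fold change of 1.98 ± 0.19 (edgeR, adjusted p = 8.27e-08). Hif1a had a log2 fold change of 0.20 (edgeR, adjusted p = 0.0286), and the call was lost without J110 replicate 1 (0.0779), J110 replicate 3 (0.111) or SSM3 replicate 3 (0.0917), and with DESeq2 (0.0600) or a fold threshold of 2 (1.0), 5 of 16 alternatives in all.

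Of 20 heme genes 17 were tested, 8 higher and 7 lower, with a median log2 fold change of 0.23. The synthesis pathway did not move as a unit. Cpox was at 84.8 ± 2.14 CPM in J110 against 31.6 ± 6.14 CPM for SSM3 (SD, n = 3), a log2 fold change of -1.43 (edgeR, adjusted p = 1.07e-08), and Uros, an earlier step, had one of -1.38. Ppox, the step after Cpox, had a log2 fold change of 1.81 but shares exons with B4galt3, whose counts were nearly the same. Hmox2 at 1.78 and Abcb10 at 1.32 likewise share exons with Cdip1 and Gm45890 and are uncertain. Hebp1, which encodes a heme-binding protein, had 100, 118 and 109 counts in J110 and 1, 0 and 0 in SSM3, a ratio of 309 (95% interval 55.1 to 12260, counting error only).

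The 30 genes of mitochondrial iron import and iron-sulphur cluster assembly were all tested, with 14 higher, 7 lower and a median log2 fold change of 0.13. Slc25a37, which encodes mitoferrin 1, the mitochondrial iron importer, had 595, 590 and 565 counts in J110 and 42, 64 and 43 in SSM3. The gene was 11.1-fold lower in SSM3 (log2 fold change -3.47 ± 0.13; edgeR, adjusted p = 3.53e-13). Its paralogue Slc25a28, mitoferrin 2, which the rule for named genes did not choose, had a log2 fold change of 0.71 (edgeR, adjusted p = 0.00202). The scaffold gene Iscu had 260, 253 and 239 counts in J110 and 116, 103 and 46 in SSM3, a log2 fold change of -1.41, and Nubpl, which serves complex I assembly, had one of -1.97. The cluster assembly factor Iba57 had 16, 21 and 13 counts in J110 and 96, 113 and 112 in SSM3, a log2 fold change of 2.75 ± 0.20 (edgeR, adjusted p = 2.55e-09). Ciapin1, of the cytosolic assembly pathway, had a log2 fold change of 2.08 and Lyrm4, a partner of the cysteine desulphurase, one of 1.34, and these share exons with Coq9 and Fars2.

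**Figure D4:**
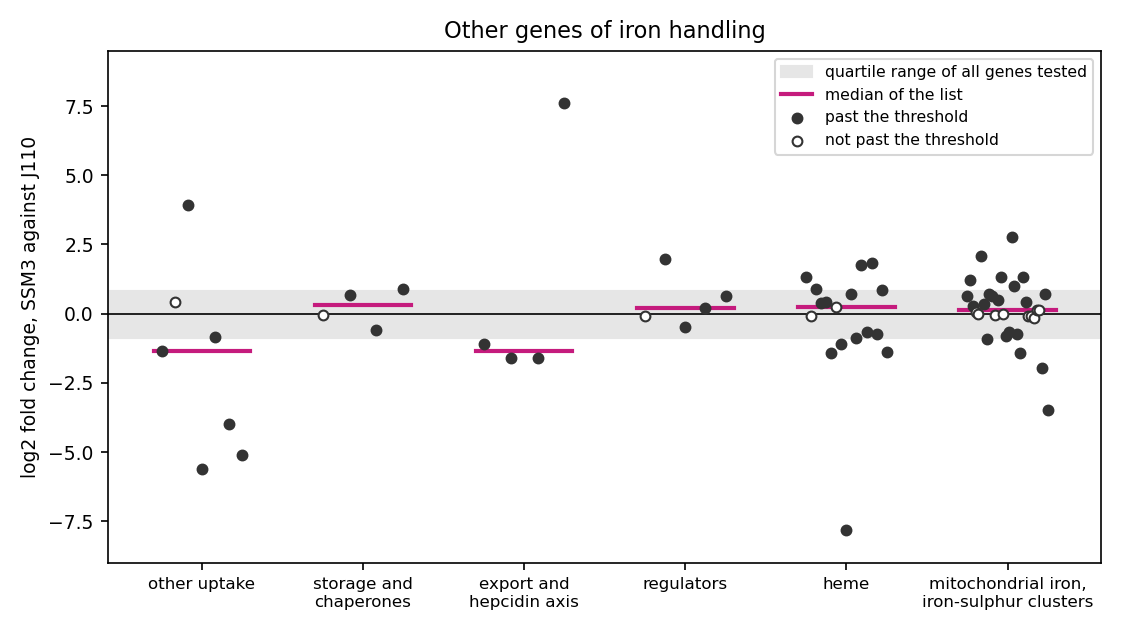
Log2 fold change, SSM3 against J110, of each tested gene of the 6 lists of other iron handling genes, with filled points past the threshold, open points not past it, a bar at each list's median and a grey band between the quartiles of all genes tested. The uptake and export medians, -1.35 and -1.34, lie below the band and the other 4 within it; the points of Tmprss6, Hebp1 and Slc39a8 are fitted values that rest on 1 count in the lower line.

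Genes that carry the same IRE pattern stood close to the background. With the members included, 25 genes with the pattern in the 5′ UTR were tested, of which 9 were higher and 10 lower in SSM3, with a median log2 fold change of 0.0078. Of 95 genes with it in the 3′ UTR, 40 were higher and 34 lower, with a median of 0.075. These counts are read against the 38.6% of all genes higher and 39.2% lower in SSM3, and both medians lay close to that of all genes. Within the members, the genes with a 5′ element thus fell on both sides, Fth1 and Ftl1 lower and Slc40a1 higher in SSM3. Tfrc, in whose 3′ UTR the search found 4 elements, was higher.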

How the data were processed

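RNA from 3 J110 and 3 SSM3 biological replicates was made into QuantSeq 3′ libraries. Per the submitters' processing notes, the authors used bcl2fastq 2.17.1.14, cutadapt 2.1, HISAT2 2.0.4 against mm10 and featureCounts of Subread 2.0.0, and they deposited raw counts per gene, not normalised. Strand and overlap settings are not given in the sources used here. Without strand, reads of a gene and an overlapping antisense gene cannot be told apart.

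Of 52636 identifiers, 52403 (99.6%) matched GENCODE M21, which gave symbols, positions and the UTRs searched. Genes with low counts were dropped by filterByExpr, TMM set the scaling, and 12284 genes were tested in edgeR 4.0.16 (quasi-likelihood test, Benjamini-Hochberg, threshold 0.05) in R 4.3.3. The filter asked for about 2 CPM in 3 libraries. The study's methods call the replicates biological, but no source used here says that they came from separate cultures, so p-values measure only the spread between these libraries, which may be technical. The biological coefficient of variation was 8.30%. No 2 libraries agreed within sampling noise (chi-square per degree of freedom 2.29 to 6.01). Exact count intervals and floors cover counting error only.

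The members and lists were chosen with earlier results of these data known. Named genes are all members and, in each list, the 3 largest changes past the threshold in each direction, with genes that share exons with them. Slc25a28, Gm22133, Ftl1-ps1, Gm6977 and the untested genes were chosen for naming once their values were known. Copies were sought with blastn 2.17.0 at 95% identity over at least 75 bases. Some results are not reported here. Alternatives were DESeq2 1.42.0, limma-voom (limma 3.58.1), other scalings, filters and depths, a fold threshold of 2, a replicate block, and leaving out each library.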

Additional observations from a re-analysis of the deposited data

How the results depend on the processing

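Under other scalings, tests, filters and depths, with the replicate block and without each library, no member changed direction. With the division of Ftl1 chosen after its values were seen, counts outside the Gm22133 interval reversed its log2 fold change to 3.10. Asking for a fold change above 2 (glmTreat) left 4272 genes called, 2 members lower, and 11 genes of the wider lists higher and 10 lower. It ended the calls of Fth1, Ftl1, Slc11a2, Ireb2 and Aco1 (adjusted p of 1.0 each) and Ncoa4 (0.150), all with unchanged direction. A filter of at least 10 counts in every library left 1 member called higher and 5 lower, since it removed Slc40a1, Ncoa4, Steap3 and Slc39a14 from the test. Aco1 also lost its call with DESeq2 (adjusted p = 0.0944), with genes of at least 1 count kept (0.0847) and with counts thinned to the smallest library (0.202). The cause was not tested. With pseudogene counts added, the Fth1 share in J110 was 85.2%. The calls of Tfrc, Slc40a1, Steap3 and Slc39a14 held in all alternatives that tested them. For the 27 named genes of the wider lists, to which the same alternatives were applied after the data were seen, 415 values kept direction and call and 12 lost the call. Without SSM3 replicate 3, Slc39a8 had a fitted log2 fold change of -7.50, Hebp1 one of -9.75 without SSM3 replicate 1, and Tmprss6 one of 9.46 without J110 replicate 3, where the lower line is left with no count. Libraries of the same number did not deviate together (r of 0.012, 0.015 and 0.027 across genes, although each correlated best with its own number). With the replicate number as a block, 9481 genes, 2 members higher and 8 lower, and 29 higher and 24 lower genes of the wider lists were called. Depth limits Ncoa4, Slc40a1 and the SSM3 levels of Steap3 and Slc39a14, which lie near the floor of 3 counts.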
